A study of Mus musculus with 50 samples.

Results

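Microglia sense extracellular nucleotides and adenosine through a set of surface receptors, and 8 genes of this system were followed here in hippocampal microglia: the nucleotide receptors P2ry6, P2ry12, P2ry13, P2rx4 and P2rx7, the ectonucleotidase Entpd1, and the adenosine receptors Adora2a and Adora3. They were taken by symbol from the 53700 genes of the count files, and all 8 were found. RNA was sequenced from sorted microglia (live CD11b+ CD45+ cells) of 50 male C57BL/6J mice, 1 library per mouse. From P2 to P9 pups were kept either undisturbed (CTR) or with limited bedding and nesting material, a model of early-life stress (ELS) that fragments maternal care. Mice were taken at P9 without treatment (12 P9-CTR, 13 P9-ELS) or at P200, 3 h after an intraperitoneal injection of PBS or of 1 mg/kg lipopolysaccharide (LPS), a bacterial cell wall component (after PBS, 7 P200-CTR-PBS and 6 P200-ELS-PBS mice, and after LPS, 7 mice in P200-CTR-LPS and 5 in P200-ELS-LPS). LPS was given to the whole animal, and its direct action on microglia and the response of the body to it cannot be told apart. Myelin was removed on Percoll from adult but not from P9 tissue, so that age and this step cannot be told apart. Within an age each nest (read here from the number before the dot in the mouse label) held mice of 1 early-life condition only, with 4 nests in P9-ELS and 5 in each other group, and mice are named here by their number in the nest.

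ATP and ADP leave damaged or active cells and are degraded stepwise outside the cell to adenosine. P2Y receptors are G protein-coupled: P2ry12 and P2ry13 encode Gi-coupled ADP receptors, the first of which steers microglial processes towards a source of ADP and is widely used as a marker of homeostatic microglia, while P2ry6 encodes a UDP receptor linked to phagocytosis. P2rx4 and P2rx7 encode ATP-gated cation channels, and P2X7 is a trigger of inflammasome assembly. Entpd1 encodes CD39, which removes phosphates from ATP and ADP, and Adora2a and Adora3 encode a Gs-coupled and a Gi-coupled receptor for the adenosine formed downstream.

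In the GRCm39 assembly used for the counts, P2ry12 (chr3:59123682-59170429, minus strand) and P2ry13 (chr3:59114539-59118304, minus strand) lie 5377 bp apart inside the gene Med12l, which runs on the opposite strand. P2rx7 (chr5:122781942-122830400) and P2rx4 (chr5:122845541-122867803) are 15140 bp apart on the plus strand. P2ry6 (chr7:100585308-100624173, minus strand), Entpd1 (chr19:40600810-40731585, plus), Adora2a (chr10:75152560-75170628, plus) and Adora3 (chr3:105778174-105816242, plus) stand apart from the others. The strand setting of the counting is not given in the sources used here, so reads in the 294 exonic bases of P2ry12 that overlap Med12l exons (9.17% of its exon length) cannot be assigned with certainty, nor those in the 670 and 154 exonic bases that Adora3 shares with Gm53046 and Tmigd3, whose median counts were 0 and 30.

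The 250 bases before the annotated start of the canonical transcript are printed, 5′ to 3′, for the 3 receptors that rose after LPS in at least 1 condition and for P2ry13, which fell in CTR mice. None of these windows touches an annotated exon. Those of P2ry6 and Adora3, and that of Entpd1, which is not printed, lie inside the annotated span of their own gene. They precede the canonical start but not the outermost annotated start. Capitals mark matches, on either strand, to 5 short motifs searched: the PU.1 core GAGGAAG, the NF-κB letters GGG and TTTCC with any 2 bases between them, the AP-1 letters TGANTCA, the cAMP response element TGACGTCA and the C/EBP letters TTGCNNAA.
P2ry6 (minus strand, chr7:100613661-100613910): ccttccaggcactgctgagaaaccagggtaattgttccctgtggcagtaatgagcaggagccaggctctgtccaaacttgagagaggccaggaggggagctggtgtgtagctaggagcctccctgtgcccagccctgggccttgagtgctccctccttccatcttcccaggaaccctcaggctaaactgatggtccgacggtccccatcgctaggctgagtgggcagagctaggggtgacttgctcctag
P2ry13 (minus strand, chr3:59118305-59118554): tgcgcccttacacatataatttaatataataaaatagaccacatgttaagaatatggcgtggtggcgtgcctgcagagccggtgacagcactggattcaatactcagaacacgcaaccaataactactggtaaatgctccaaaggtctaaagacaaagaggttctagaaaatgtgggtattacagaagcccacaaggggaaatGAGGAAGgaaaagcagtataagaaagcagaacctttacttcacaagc
Adora2a (plus strand, chr10:75152310-75152559): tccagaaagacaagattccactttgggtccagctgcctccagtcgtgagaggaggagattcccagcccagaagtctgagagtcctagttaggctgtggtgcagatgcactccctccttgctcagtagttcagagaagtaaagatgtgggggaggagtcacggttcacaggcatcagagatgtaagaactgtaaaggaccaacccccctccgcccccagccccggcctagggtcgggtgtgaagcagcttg
Adora3 (plus strand, chr3:105811487-105811736): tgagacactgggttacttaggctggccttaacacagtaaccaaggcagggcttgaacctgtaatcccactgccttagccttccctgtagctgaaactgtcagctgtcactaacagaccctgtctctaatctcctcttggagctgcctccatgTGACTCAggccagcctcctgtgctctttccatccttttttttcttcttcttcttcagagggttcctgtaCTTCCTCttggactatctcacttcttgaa
P2ry13, Entpd1 and Adora3 held the PU.1 core, which was found in 10.3% of 21757 protein-coding promoter windows of this length. P2rx7 and Adora3 held the AP-1 letters (6.18% of windows), and P2ry12, whose window lies wholly within Med12l exons and is therefore not printed, held the C/EBP letters (9.34% of windows). No window of the 8 genes held the NF-κB letters (1.47% of windows) or the cAMP response element (1.70%). A match describes the letters only.

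Library totals ran from 5152838 to 42231258 counts (median 19960409), and 12482 to 21100 genes had a count. Of the 3 libraries with the fewest genes, P9-ELS mice 3 and 2 of nest 19 had 12482 and 15731 and P200-CTR-PBS mouse 1 of nest 1 had 12854, and results that rest on them are also given without them. Summed over 11 microglia markers the level was 32235 to 77392 CPM (counts per 1e6, scaled with TMM library sizes). Border macrophage markers summed to 470 to 918 CPM at P9 and at most 9.62 CPM at P200, and neuronal and astrocyte markers were also higher at P9, with median sums of 79.7 and 142 CPM in P9-CTR against 5.74 and 5.11 CPM in P200-CTR-PBS. Monocyte and neutrophil markers stayed at or below 11.0 and 3.68 CPM in every mouse, and lymphocyte markers at or below 0.675 CPM. Markers of platelets, which also express P2ry12 and P2rx1, summed to 1.47 to 57.1 CPM, with medians of 25.4 CPM in P200-CTR-PBS and 29.9 CPM in P200-CTR-LPS, and their part in the results was not tested. In RNA from sorted pools, fewer cells of a type and less RNA per cell cannot be told apart.

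P2ry12 was the most abundant of the 8 genes per length in every group, and Adora2a the least. In P200-CTR-PBS, mean levels in CPM per kilobase of exon were 4491 ± 392 for P2ry12, 1538 ± 96.9 for P2ry13, 336 ± 23.3 for Entpd1, 85.6 ± 11.5 for P2ry6, 75.5 ± 10.9 for Adora3, 29.2 ± 4.30 for P2rx7 and 19.9 ± 1.39 for P2rx4 (SD, n = 7), with Adora2a at 0 counts. The order of the means was the same in all 6 groups. In P200-CTR-PBS the mice of neighbouring genes overlapped for P2ry6 and Adora3 alone, whereas after LPS the 2 ATP-gated channels overlapped, at 25.1 ± 2.89 for P2rx7 and 23.8 ± 2.28 for P2rx4 in P200-CTR-LPS (SD, n = 7). At P9 Entpd1 and P2ry6 overlapped, at 156 ± 17.5 and 99.4 ± 13.6 in P9-CTR (SD, n = 12).

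**Figure D1:**
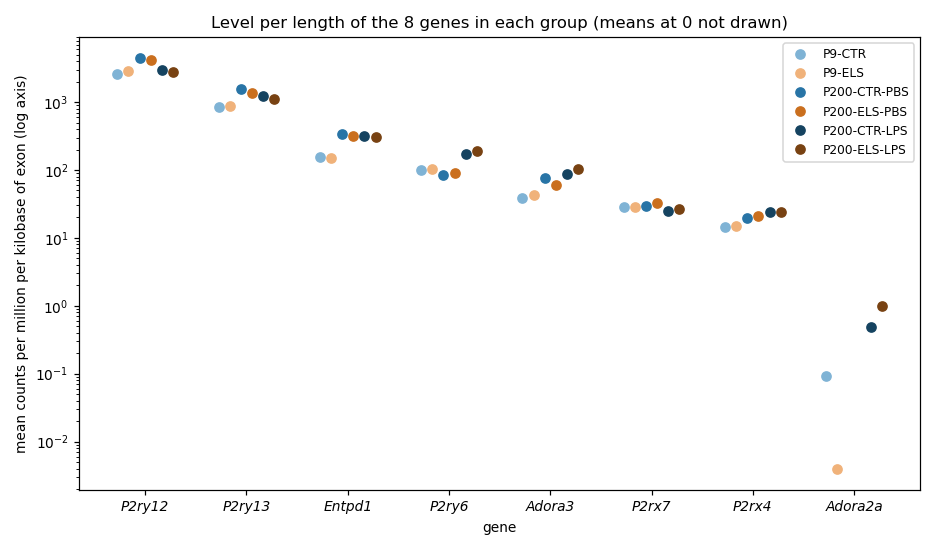
Mean level of the 8 genes in CPM per kilobase of exon (log axis) in each of the 6 groups, 1 point per group. P2ry12 leads in every group, and Adora2a, not drawn where all mice were at 0, lies below 1.

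The levels of each gene in single mice, in CPM, are drawn by group. Apart from Adora2a, each gene had counts in all 50 mice. The widest spread was that of P2ry12 in P9-ELS, where mouse 2 of nest 19 stood at 20369 CPM and mouse 3 of that nest at 4321 CPM around a mean of 9278 ± 3666 (SD, n = 13). Without these libraries the mean was 8719.8 ± 1014 (SD, n = 11). In the first of these mice, P2ry6 (267 CPM), P2rx4 (78.5), P2rx7 (105) and Entpd1 (547) were at the lowest value of their group.

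**Figure D2:**
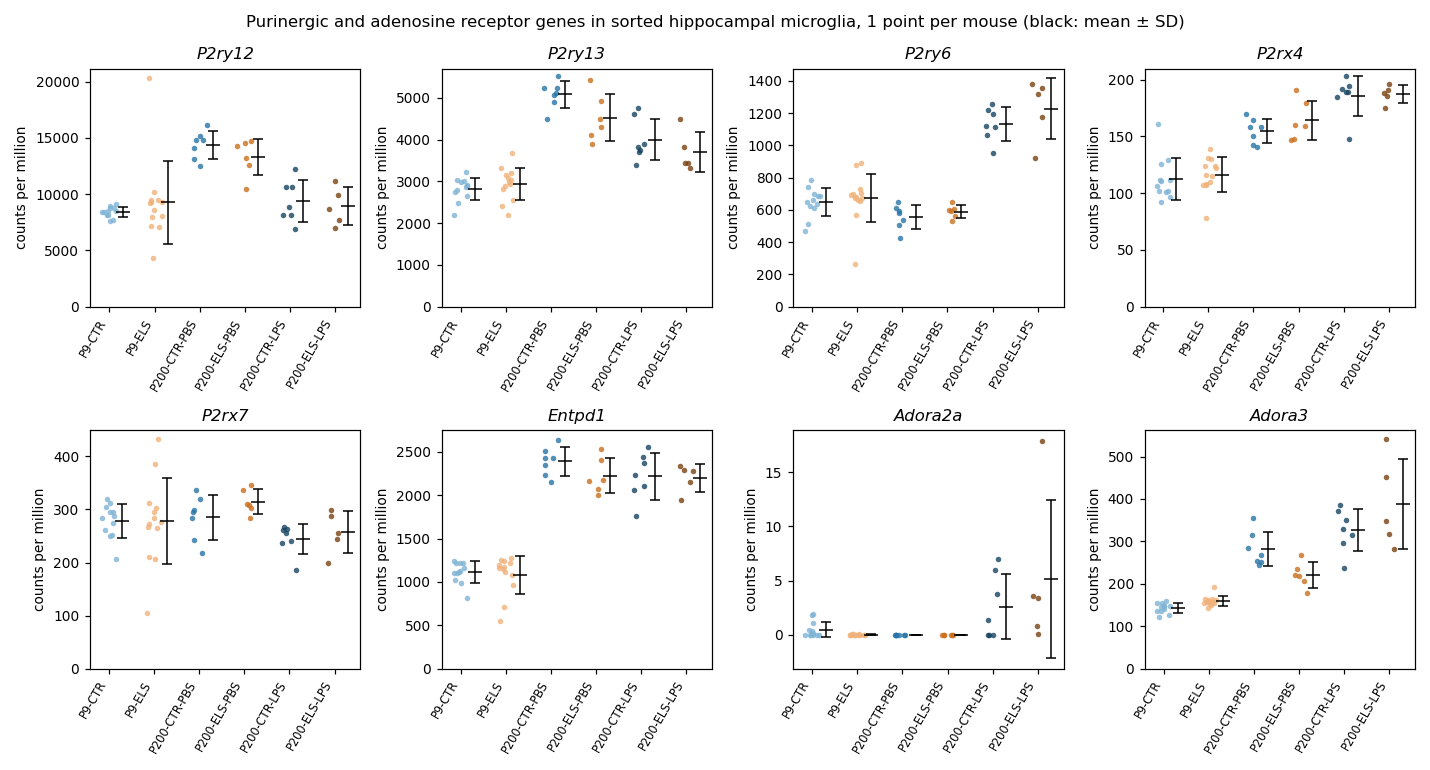
CPM of each gene in every mouse (points) with the group mean ± SD (black); each panel has its own linear axis. P2ry12, P2ry13, Entpd1 and Adora3 step up from P9 to P200, P2ry6 stands higher in the LPS groups, and Adora2a is at 0 in all PBS mice.

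To see how the genes change from the pup to the adult, PBS-injected P200 mice were compared with P9 mice in each early-life condition by edgeR's quasi-likelihood test with Benjamini-Hochberg adjustment over 16696 genes. P2ry12, P2ry13, P2rx4, Entpd1 and Adora3 were higher in adult microglia in CTR and in ELS mice alike, and P2ry6 and P2rx7 were not called. Adora2a was lower in CTR adults. Thus 6 of 8 genes were called in CTR mice, where 44.1% of all genes tested were, and 5 of 8 in ELS mice, where 42.2% were. All 8 passed the filter on low counts, but Adora2a did so only through LPS and P9-CTR mice, and its calls are read with that in view. The median log2 fold change of the other 7 genes was 0.77 in CTR and 0.50 in ELS, against -0.09 and -0.01 over all genes. The summed microglia markers moved the same way, with medians of 47772 CPM in P9-CTR and 74406 CPM in P200-CTR-PBS and of 49239 and 73104 CPM in the ELS groups. Of these 11 markers 7 rose and 1 fell with age in CTR mice and 6 rose and 1 fell in ELS mice, and their part in the rises of the receptor genes and Entpd1 was not tested.

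Among the ADP receptors, P2ry12 rose from 7636 to 9114 CPM (median 8445) in P9-CTR to between 12499.6 and 16171 CPM (median 14793) in P200-CTR-PBS. Every adult CTR mouse was above every CTR pup, and the log2 fold change was 0.77 ± 0.14 (SE; edgeR adjusted p = 9.72e-06). In ELS mice the range was 4321 to 20369 CPM (median 9180.4) at P9 and 10471 to 14698 CPM (median 13763) at P200. The adult ELS mice lay above all pups but mouse 2 of nest 19, and the log2 fold change was 0.52 ± 0.14 (SE; edgeR adjusted p = 0.00292), or 0.61 without the 3 libraries with the fewest genes. P2ry13 moved in the same direction, from 2204 to 3215 CPM in P9-CTR to between 4500.5 and 5530.4 CPM in P200-CTR-PBS (log2 fold change 0.85 ± 0.08, SE; edgeR adjusted p = 4.14e-12). Its ELS ranges were 2185 to 3667 CPM and 3894 to 5423 CPM (0.62 ± 0.09; edgeR adjusted p = 5.07e-08), again without overlap.

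Entpd1, the enzyme that removes the ligands of these receptors, showed the largest rise of the 8 genes in both conditions. It went from 809 to 1240.0 CPM (median 1122) in P9-CTR to 2148 to 2641 CPM (median 2425) in P200-CTR-PBS, a log2 fold change of 1.11 ± 0.10 (SE; edgeR adjusted p = 1.01e-12). In ELS mice it went from 547 to 1274 CPM to 1999.9 to 2534 CPM (1.04 ± 0.11; edgeR adjusted p = 1.38e-11). Entpd1 and, in CTR mice, Adora2a were those of the 8 that passed an absolute log2 fold change of 1 as well, as did 26.4% of all genes in CTR and 26.2% in ELS mice. Adora2a passed the filter on low counts only through LPS and P9-CTR mice, so its part in this count is no support. Without the 3 libraries with the fewest genes Entpd1 was at 1.11 in CTR mice and at 0.96, below 1, in ELS mice.

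Adora3 rose from 123 to 159 CPM (median 146) in P9-CTR to 244 to 356 CPM (median 269) in P200-CTR-PBS, without overlap (log2 fold change 0.98 ± 0.10, SE; edgeR adjusted p = 5.65e-12). In ELS mice the pups spanned 144 to 192 CPM and the adults 178 to 268 CPM, which overlapped (0.47 ± 0.10; edgeR adjusted p = 0.000149). P2rx4 rose from 92.6 to 161 CPM in P9-CTR to 141 to 169 CPM in P200-CTR-PBS (0.46 ± 0.09; edgeR adjusted p = 6.17e-05). Its ELS adults (147 to 191 CPM) were all above the ELS pups (78.5 to 139 CPM), at a log2 fold change of 0.50 ± 0.10 (edgeR adjusted p = 2.97e-05). Counted over the 8 genes, adults stood wholly above pups for 4 genes in CTR (P2ry12, P2ry13, Entpd1 and Adora3, against 6.56% of all genes) and for 3 in ELS (P2ry13, P2rx4 and Entpd1, against 4.6% of all genes).

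P2ry6, the UDP receptor, spanned 472 to 788 CPM in P9-CTR and 424 to 646 CPM in P200-CTR-PBS (log2 fold change -0.22 ± 0.12; edgeR adjusted p = 0.154) and gave -0.20 ± 0.13 in ELS mice (edgeR adjusted p = 0.220). The calls changed without P9-ELS mouse 2 of nest 19, where the values were -0.22 (edgeR adjusted p = 0.0436) in CTR and -0.27 (edgeR adjusted p = 0.0184) in ELS mice. That mouse is in neither CTR group, and the CTR value stayed at -0.22, but the 6 groups share 1 estimate of the spread. Without all 3 libraries with the fewest genes the values were -0.16 (edgeR adjusted p = 0.128) in CTR and -0.24 (edgeR adjusted p = 0.0252) in ELS mice. P2rx7, the channel linked to the inflammasome, had medians of 286 CPM in P9-CTR and 296 CPM in P200-CTR-PBS (0.03 ± 0.14; edgeR adjusted p = 0.867), and 276 and 309 CPM in ELS mice (0.18 ± 0.14; edgeR adjusted p = 0.324). Adora2a had counts in 6 of 12 P9-CTR mice, where it reached 0.136 to 1.92 CPM, and in none of the 7 P200-CTR-PBS mice (edgeR adjusted p = 0.00294). The call in CTR mice is no support, as Adora2a passed the filter on low counts only through LPS and P9-CTR mice. Adora2a had counts in 3 of 13 P9-ELS mice, at no more than 0.118 CPM, and in none of the 6 P200-ELS-PBS mice (edgeR adjusted p = 0.275). The summed neuronal markers were 41.4 to 119 CPM in P9-CTR, 14.7 to 96.0 CPM in P9-ELS and at most 11.6 CPM in the PBS mice, and their part in the Adora2a counts was not tested.

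The response to systemic LPS was then measured against PBS at P200. At 3 h after LPS the UDP receptor P2ry6 was 2.03-fold higher in CTR and 2.09-fold higher in ELS mice, while the ADP receptor P2ry12 was at 0.651 and 0.671 of its PBS level. Adora2a, without a count in any PBS mouse, had counts in 4 of 7 CTR and 5 of 5 ELS mice. Adora3 was higher in ELS mice. In each condition 4 of 8 genes were called, where 14.9% of all genes were in CTR mice and 12.3% in ELS mice. The median log2 fold change of the 7 genes other than Adora2a was -0.11 in CTR and -0.02 in ELS, against 0.00 and -0.04 over all genes. LPS and PBS mice did not overlap for P2ry6 and P2ry12 in CTR (7.49% of all genes) and for P2ry6, Adora2a and Adora3 in ELS, all higher (5.65% of all genes). With all 50 libraries P2ry6 and Adora2a also passed an absolute log2 fold change of 1 in both conditions, as did 9.62% of all genes in CTR and 7.86% in ELS mice. Adora2a, counted among these, passed the filter on low counts only through LPS and P9-CTR mice, so its part in these counts is no support. Without it the genes called were P2ry6, P2ry12 and P2ry13 in CTR mice and P2ry6, P2ry12 and Adora3 in ELS mice.

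P2ry6 was at 424 to 646 CPM (median 582) in P200-CTR-PBS and at 949.7 to 1255 CPM (median 1122) in P200-CTR-LPS, a log2 fold change of 1.02 ± 0.14 (SE; edgeR adjusted p = 1.04e-07). Without the 3 libraries with the fewest genes the CTR value was 0.96, below 1 (edgeR adjusted p = 6.42e-11). In ELS mice P2ry6 was at 528 to 646 CPM after PBS and at 918, 1175, 1316, 1353 and 1378 CPM after LPS (1.06 ± 0.16; edgeR adjusted p = 7.20e-07). Within nests, LPS mice exceeded PBS mice in 5 of 5 CTR nests and 5 of 5 ELS nests, by 0.77 to 1.44 and 0.80 to 1.27 on the log2 scale. The value of 1.44 was that of nest 1, whose only PBS mouse is among the 3 libraries with the fewest genes.

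P2ry12 was at 12499.6 to 16171 CPM after PBS and at 6942 to 12227 CPM (median 8862) after LPS in CTR mice, where every LPS mouse was below every PBS mouse (log2 fold change -0.62 ± 0.16, SE; edgeR adjusted p = 0.00443). The ELS mice had 10471 to 14698 CPM after PBS and 7012, 7723, 8688, 9973 and 11200.1 CPM after LPS (-0.58 ± 0.18; edgeR adjusted p = 0.0271), and overlapped through the PBS mouse of nest 2. The call in ELS mice was lost on leaving out any 1 of 6 mice (edgeR adjusted p from 0.0503 to 0.0938). These were the LPS mice of nests 2, 17 and 20, both PBS mice of nest 17 and the PBS mouse of nest 20. Without the 3 libraries with the fewest genes, none of them an adult ELS mouse, the value stayed at -0.58 and the edgeR adjusted p was 0.000103. LPS mice were lower than PBS mice in 5 of 5 nests of each condition, by values from -0.91 to -0.21 in CTR and from -0.91 to -0.17 in ELS. P2ry13 was at 3402 to 4764 CPM (median 3825) after LPS in CTR mice, against 4500.5 to 5530.4 CPM after PBS (-0.35 ± 0.10; edgeR adjusted p = 0.0082). That call was lost when counts were summed per nest (edgeR adjusted p = 0.0752). In ELS mice P2ry13 was at 3312, 3428, 3441, 3813 and 4502 CPM after LPS (-0.29 ± 0.11; edgeR adjusted p = 0.0717). Of the 11 microglia markers, Sall1 (-1.73 in CTR, -2.01 in ELS) and the receptor gene Gpr34 (-0.75 and -0.76) also fell with LPS in both conditions and the other 9 were not called.

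Adora2a was at 0 counts in all 13 PBS mice. After LPS it was at 0 in the CTR mice of nests 5, 15 and 18 and at 1.36, 3.73, 6.02 and 6.96 CPM in the other 4 (edgeR adjusted p = 0.000561). In ELS mice it was found in 5 of 5, at 0.124, 0.819, 3.39, 3.57 and 17.8 CPM (edgeR adjusted p = 0.000553). As Adora2a passed the filter on low counts only through LPS and P9-CTR mice, these adjusted p-values are no support. The bounds that follow are a description. Set against a floor of 3 counts over the PBS group, the mean was at least 129-fold higher in CTR (2.58 CPM) and at least 252-fold higher in ELS mice (5.15 CPM), and these bounds cover counting error only. The ELS bound depended on the mouse of nest 20 with 17.8 CPM, without which the mean was 1.98 CPM and the bound 96.9-fold. Leaving out each CTR LPS mouse in turn gave bounds from 92.5-fold to 150.4-fold. The summed neutrophil markers reached 1.84 CPM in P200-CTR-LPS and 3.68 CPM in P200-ELS-LPS, against 0.213 and 0.0 CPM after PBS, with medians of 0.0. The monocyte markers reached 7.73 and 5.98 CPM after LPS, against 8.98 and 11.0 CPM after PBS. Their part in the Adora2a counts was not tested. Adora3 was at 244 to 356 CPM after PBS and 238 to 386 CPM (median 329) after LPS in CTR mice (0.21 ± 0.11; edgeR adjusted p = 0.216). Without the 3 libraries with the fewest genes its value in CTR mice was 0.28 (edgeR adjusted p = 0.0618). In ELS mice it was at 178 to 268 CPM after PBS and at 282, 316, 348, 453 and 541 CPM after LPS (0.81 ± 0.13; edgeR adjusted p = 2.51e-06), with every LPS mouse above every PBS mouse.

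The ion channels and Entpd1 were not called after LPS in either condition. P2rx4 was at 148 to 203 CPM after LPS in CTR mice (0.26 ± 0.11; edgeR adjusted p = 0.0851), and without the mouse of nest 5, which was the lowest, it was called (0.31; edgeR adjusted p = 0.0394). In ELS mice it was at 175 to 196 CPM (0.19 ± 0.12; edgeR adjusted p = 0.343). P2rx7 gave -0.22 ± 0.15 in CTR (edgeR adjusted p = 0.392) and -0.29 ± 0.17 in ELS mice (edgeR adjusted p = 0.314). Its LPS mice were lower in 5 of 5 nests of each condition, by values from -0.27 to -0.013 in CTR and from -0.61 to -0.22 in ELS. The share of all genes lower in every nest is not given here. Entpd1 gave -0.11 ± 0.12 (edgeR adjusted p = 0.633) and -0.02 ± 0.13 (edgeR adjusted p = 0.967), at medians of 2227 and 2275 CPM after LPS.

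**Figure D3:**
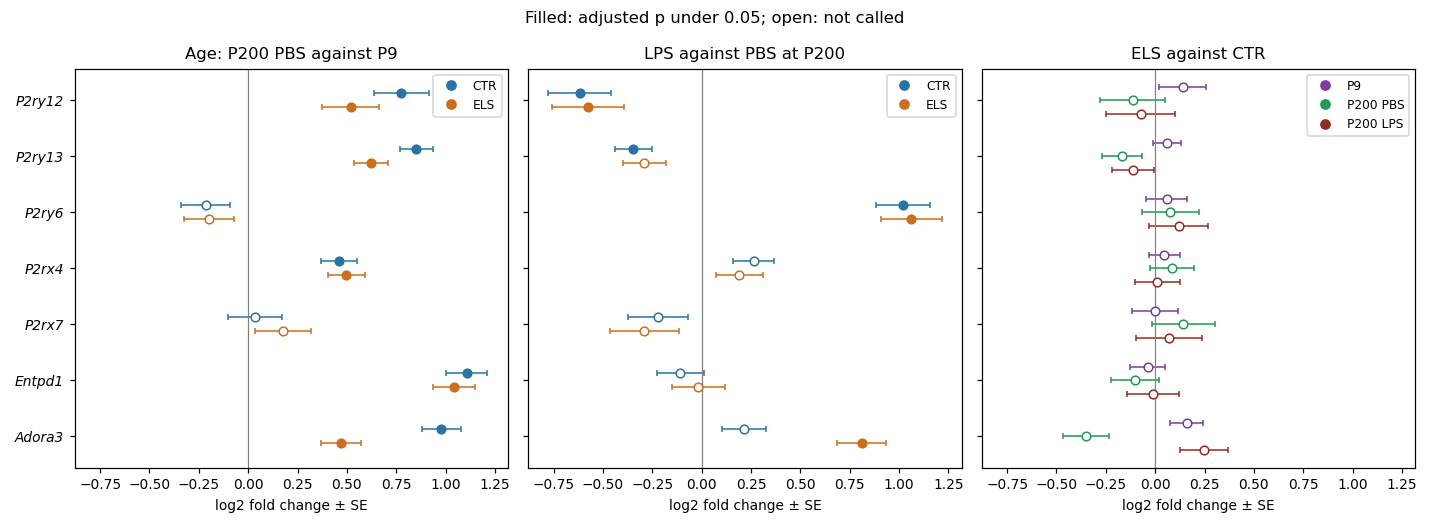
Log2 fold change ± SE of the 7 genes other than Adora2a with age, after LPS, and in ELS against CTR mice (filled points: adjusted p under 0.05). The ADP receptors rise with age and lie below 0 after LPS, P2ry6 stands near 1 after LPS in both conditions, and no point of the ELS comparison is filled.

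**Figure D4:**
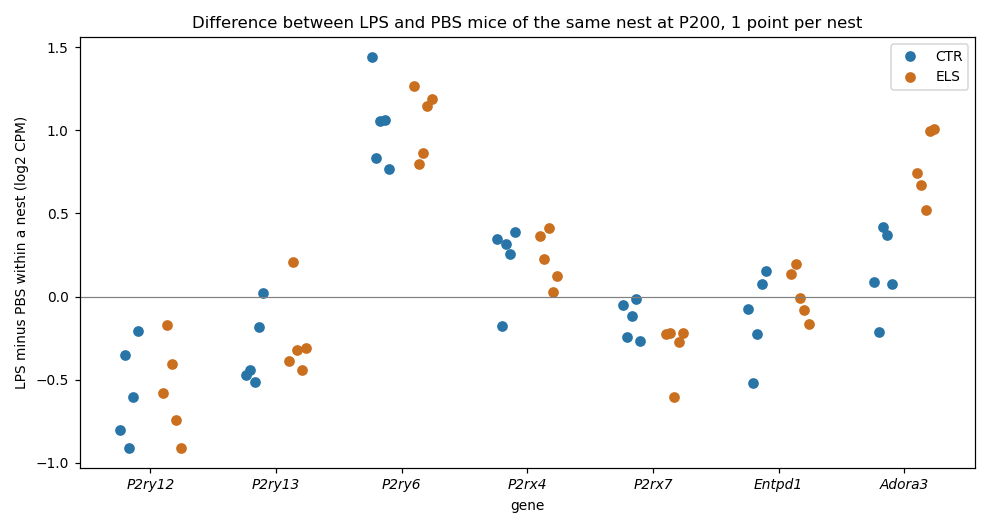
LPS minus PBS within each of 5 CTR and 5 ELS nests at P200, in log2 CPM, 1 point per nest, for the genes other than Adora2a. All points of P2ry6 lie above 0 and all those of P2ry12 and P2rx7 below it, though P2rx7 was not called in either condition. The ELS nests of Adora3 (0.52 to 1.01) lie above its CTR nests (-0.22 to 0.42).

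The effect of early-life stress was tested at each age and treatment. None of the 8 genes was called at P9 (0.0% of all genes were), after PBS (0.168%) or after LPS (0.0%) in the edgeR fit, and none had groups without overlap (0.0%, 0.323% and 0.156% of all genes). Before adjustment, 914, 1622 and 798 of all genes passed p under 0.05 in these comparisons, and of the 8 genes Adora2a at P9 and Adora3 after PBS and after LPS. For the 6 genes other than the adenosine receptors the log2 difference of ELS from CTR lay between -0.17 (P2ry13 after PBS) and 0.14 (P2ry12 at P9, P2rx7 after PBS), and their intervals of 2 SE reached from -0.45 to 0.46 at most. Adora2a had counts in 3 of 13 P9-ELS mice against 6 of 12 P9-CTR mice (unadjusted p = 0.000697; edgeR adjusted p = 0.858). It passed the filter on low counts only through LPS and P9-CTR mice, so the unadjusted value is no support.

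Adora3 differed in sign between treatments. It was lower in ELS than in CTR mice after PBS, 221 ± 30.1 CPM (SD, n = 6) against 282 ± 40.7 CPM (SD, n = 7), and higher after LPS, 388 ± 107 CPM (SD, n = 5) against 326 ± 49.9 CPM (SD, n = 7). Neither difference passed the adjustment (log2 -0.35 ± 0.12, unadjusted p = 0.00418, edgeR adjusted p = 0.202; and 0.25 ± 0.12, unadjusted p = 0.0451, edgeR adjusted p = 1.0), and the groups overlapped in both. The highest P200-CTR-PBS value (356 CPM) was that of mouse 1 of nest 1, among the 3 libraries with the fewest genes. Without these libraries that group was at 269 ± 26.7 CPM (SD, n = 6) and the difference after PBS was -0.28 (edgeR adjusted p = 0.303). The test of the difference between the LPS effects in ELS and CTR mice gave 0.60 ± 0.17 for Adora3 (unadjusted p = 0.00081; edgeR adjusted p = 0.281), where 0.0% of all genes were called. Within nests, every ELS nest exceeded every CTR nest in its LPS minus PBS difference, as was so for 0.407% of all genes, or 0.886% with either condition on top. The difference between the age effects was -0.51 ± 0.14 (unadjusted p = 0.000837; edgeR adjusted p = 0.258), where 0.0299% of genes were called. Both tests use the same 6 P200-ELS-PBS and 7 P200-CTR-PBS mice, so they are not separate observations. Without the 3 libraries with the fewest genes the difference between LPS effects was 0.53 (edgeR adjusted p = 0.254). That between age effects was then -0.46 (edgeR adjusted p = 0.278). The other 6 genes with counts in every mouse were not called in either test (edgeR adjusted p of at least 0.519), and Adora2a, at 0 in the PBS mice, gave no usable estimate.

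Around these genes a list of 59 further genes of nucleotide and adenosine signalling was examined, of which 47 passed the filter. With age 8 rose and 23 fell in CTR mice, so that 66% of the list was called against 44.1% of all genes, and 7 rose and 18 fell in ELS mice (53% against 42.2%). After LPS 7 rose and 5 fell in CTR mice (26% of the list against 14.9% of all genes) and 8 rose and 3 fell in ELS mice (23% against 12.3%). For ELS against CTR 0 were called in the edgeR fit, where 0.0% of all genes were called at P9, 0.168% after PBS and 0.0% after LPS. By class, the P2Y receptors P2ry2 and P2ry14 and the adenosine receptor Adora2b rose after LPS in both conditions and P2ry10b fell. These are listed by call alone, whatever their level, and P2ry2 and P2ry14 were below a mean log2 CPM of 1. The median log2 fold change of the list with age was -0.38 in CTR and -0.41 in ELS mice, against -0.09 and -0.01 over all genes. After LPS it was 0.14 in CTR and 0.18 in ELS mice, against 0.00 and -0.04 over all genes.

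Among receptors, P2rx1, an ATP-gated channel, fell with age from 51.0 ± 7.76 CPM (SD, n = 12) to 7.99 ± 2.22 CPM (SD, n = 7) in CTR mice, a log2 fold change of -2.67 ± 0.23 (edgeR adjusted p = 1.16e-13), and by a like value in ELS mice (-2.72 ± 0.25). P2ry14, the receptor gene of the list in the same cluster as P2ry12 and P2ry13, was near the limit of detection, at 0.599 ± 0.590 CPM in P9-CTR (SD, n = 12), 0.0131 CPM in P200-CTR-PBS and 0.316 CPM in P200-CTR-LPS. Of enzymes, Enpp4, an ectoenzyme that acts on nucleotides, rose with age (2.14 ± 0.26 in CTR, edgeR adjusted p = 2.88e-09), and Adk, adenosine kinase, fell (-2.35 ± 0.34; edgeR adjusted p = 1.26e-07). Ada, adenosine deaminase, fell in CTR (-1.98 ± 0.42; edgeR adjusted p = 0.00014) and in ELS mice (-2.46 ± 0.46; edgeR adjusted p = 1.94e-05). Slc17a9, the vesicular nucleotide transporter, rose with age in CTR (0.70 ± 0.29; edgeR adjusted p = 0.0469) and in ELS mice (1.23 ± 0.30; edgeR adjusted p = 0.000665). Gja1, a connexin gene that astrocytes express strongly, fell with age from 28.8 to 0.561 CPM in CTR mice, beside the fall in the summed astrocyte markers given above, whose part was not tested. All tested astrocyte, neuronal and border macrophage markers (4, 4 and 6) were called lower with age in CTR mice, and 4, 3 and 5 in ELS mice. Their part in the falls of the other list genes was not tested either.

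After LPS, the interleukin Il1b, which P2X7 activation releases as protein, rose from 1.73 ± 1.66 to 406 ± 209 CPM in CTR mice (SD, n = 7 each; log2 fold change 7.80 ± 0.71; edgeR adjusted p = 1.05e-12) and by 8.70 ± 0.80 in ELS mice. Pde4b, a phosphodiesterase that degrades the cAMP made downstream of Gs-coupled receptors, rose by 3.81 ± 0.21 in CTR (edgeR adjusted p = 2.09e-20) and 4.21 ± 0.23 in ELS mice. Nlrp3, the sensor of the inflammasome, rose by 1.04 ± 0.27 in CTR (edgeR adjusted p = 0.00491) and 1.05 ± 0.30 in ELS mice (edgeR adjusted p = 0.0148). Gna11, a Gq-family subunit, fell in CTR mice (-0.86 ± 0.26; edgeR adjusted p = 0.0172) and in ELS mice, there from 23.4 ± 2.76 to 10.7 ± 3.00 CPM (-1.13 ± 0.30; edgeR adjusted p = 0.00687). Gja1 rose in ELS mice from 0.0743 to 1.91 CPM (4.47 ± 0.99; edgeR adjusted p = 0.000957) and was not called in CTR mice (0.67 ± 0.74; edgeR adjusted p = 0.632). Of the 4 astrocyte markers, Gfap rose with it in ELS mice (3.92; edgeR adjusted p = 0.000787), where the median sum of these markers was 3.92 CPM after PBS and 7.23 CPM after LPS, and their part in the Gja1 value was not tested.

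**Figure D5:**
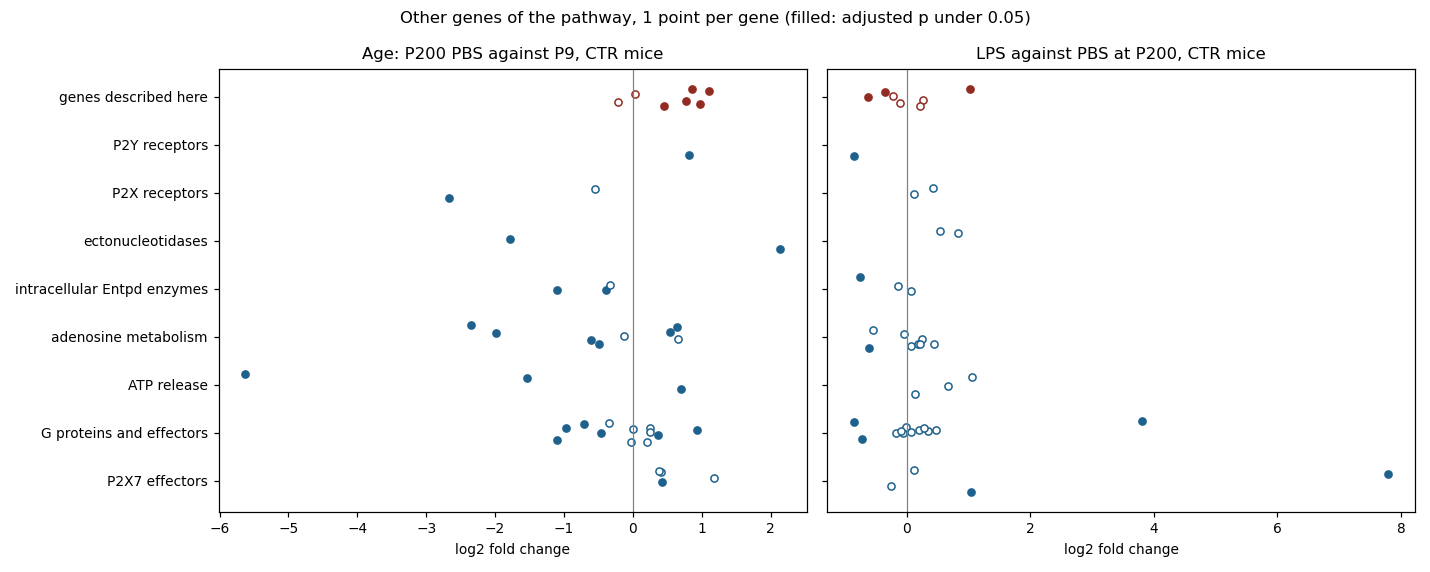
Log2 fold change with age (left) and after LPS (right) in CTR mice for the genes described here other than Adora2a (red) and for the 35 other pathway genes with a mean log2 CPM of at least 1 (blue), by class, 1 point per gene (filled: adjusted p under 0.05). The genes described here lie between -0.62 and 1.11, while Gja1 (-5.63) with age and Il1b (7.80) after LPS lie farthest from 0.

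Genes with the most similar pattern were taken by Pearson's r of log2 CPM over the 50 mice, which share age and treatment groups, so that the values are a description. P2ry12 was closest to Gpr34 (0.95), Lims1 (0.94) and Arhgap5 (0.91), and P2ry13 to Ifngr1, St3gal6 and Cask (0.91 each). P2ry6 was closest to Litaf (0.93), Cdc42se1 (0.92) and Plekho2 (0.91), and Entpd1 to Selplg (0.97), Edem2 (0.96) and Slc2a5 (0.95). Adora3 was closest to Srgn (0.95), Cxcl16 (0.94) and Zmynd15 (0.94), and Adora2a, with the lowest values, to Gm43109 (0.79), Vcam1 (0.77) and Adm (0.77). P2rx4 was closest to Bcl7b (0.91), Ifnar2 (0.91) and Cdc42ep3 (0.90), and P2rx7 to Pnpla7 (0.87), Slc37a2 (0.86) and Stk10 (0.84).

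Among the 8 genes themselves, r after removing the group means (28 pairs, 50 mice) was highest for P2ry13 and Entpd1 at 0.69 and lowest for P2ry6 and P2ry12 at -0.65. These values depended on the 3 libraries with the fewest genes. Without them P2ry13 and Entpd1 stayed at 0.71, P2ry6 and P2ry12 were at -0.24, and the neighbours P2ry12 and P2ry13 went from 0.39 to 0.68. The other neighbouring pair, P2rx4 and P2rx7, was at 0.37 with and 0.06 without these libraries. Adora2a and Adora3 were at 0.53 and 0.56.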

How the data were processed

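Libraries were made with a low-input kit from the poly-A-tailed mRNA of the isolated RNA, 1 for each of 50 mice. The authors trimmed reads with cutadapt 2.10, aligned them to GRCm39 by STAR and assigned unique exonic reads to genes with HTSeq 0.11.0 (annotation release and strand setting not given in the sources used here), and the deposited values are raw counts per gene. Counts were normalised with TMM and fitted in edgeR 4.0.16 (R 4.3.3; glmQLFit, glmQLFTest) with 1 mean for each of the 6 groups over all 50 mice, after dropping genes that did not reach 1 CPM in more than 2 mice, which left 16696. Genes were called at a Benjamini-Hochberg adjusted p under 0.05. SE is the absolute log2 fold change over the square root of F. For Adora2a no SE or fitted fold is given where a group is at 0.

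The 8 genes, the pathway list and the marker lists were chosen with earlier results of these data known. Pathway genes named are, per comparison, the 3 largest rises and falls past an adjusted p of 0.05, an absolute log2 fold change of 1 and a mean log2 CPM of 1. Others named are the receptor genes of the list called after LPS whatever their level, genes overlapping or neighbouring the 8, the 3 most similar genes, and Sall1 and Gpr34, named after their values were seen. Promoter windows, gene positions and exon lengths came from GRCm39 with GENCODE annotation, which matched 52610 of 53700 genes. The alternatives were an edgeR likelihood-ratio and a robust fit, DESeq2 1.42.0 and its size factors, other filters, only the groups compared, nest sums, limma 3.58.1 voom with nest as random effect, a nest block, a fold threshold, and leaving out mice. On simulated counts of these libraries (LPS against PBS in CTR mice, 16696 genes, 200 of them changed by a log2 fold change of 1) the fit recovered 28.5% of changed genes, 84.6% of the 13 with a mean log2 CPM of at least 7, with 2 false calls. The simulation changed far fewer genes than the 14.9% called in the real comparison, so these shares do not give the power there.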

Additional observations from a re-analysis of the deposited data

Results flagged for a closer look

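Values of 2 single mice stood far from the rest of their group by Dixon's ratio, among 30 sets of 1 gene in 1 group of 5 to 7 mice that were examined, of which chance alone flags about 1 in 20. P2rx4 in P200-CTR-LPS, mouse 3 of nest 5 was at 148 CPM, while the other 6 mice lay between 185 and 203 CPM. P2rx7 in P200-CTR-LPS, mouse 2 of nest 1 was at 186 CPM, while the others lay between 238 and 267 CPM.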

How the results depend on the processing

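The number of the 8 genes called was within 1.5 times its main value in 101 comparisons with an alternative and in all 450 without 1 mouse. The 4 exceptions came with the added fold threshold, which left 2 genes for age in CTR mice, 1 for age in ELS mice, and 2 for LPS in CTR and 2 in ELS mice. Of single-gene values, 538 kept their direction and call, 14 changed sign, 7 gained and 1 lost the call. A changed sign was seen only in values near 0 that were not called: for ELS against CTR at P9, P2rx7 at 0.0031 (only the groups compared), 0.0084 (nest sums) and 0.11 and Entpd1 at 0.040 (both without the 3 libraries with the fewest genes); after LPS, P2rx4 at -0.0012 (filterByExpr) and Entpd1 at 0.0097 (only the groups compared); for age in CTR mice, P2rx7 at -0.0037 (nest sums); and for LPS in ELS mice, Entpd1 at 0.0077 (DESeq2, and its size factors), 0.020 (no filter), 0.0070 (filterByExpr), 0.012 (nest sums), 0.045 (nest block) and 0.018 (P200 mice without the block, added after seeing the data). The cause was not tested.

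P2rx4 after LPS in CTR mice was called with DESeq2 (0.28, adjusted p = 0.0348), with only the groups compared (0.26, edgeR adjusted p = 0.0432), with the P200 mice without the block (0.25, edgeR adjusted p = 0.0448), without the 3 libraries with the fewest genes (0.26, edgeR adjusted p = 0.0493) and without P9-ELS mouse 2 of nest 19 alone (0.26, edgeR adjusted p = 0.0358). P2ry13 after LPS in ELS mice was called with limma voom (-0.28, adjusted p = 0.0409) and without the 3 libraries with the fewest genes (-0.29, edgeR adjusted p = 0.0221), and on leaving out either of P9-ELS mice 2 and 3 of nest 19 or either P200-ELS mouse of nest 4 (edgeR adjusted p from 0.0231 to 0.0484). Where a mouse left out is in neither group compared, the call can move through the estimate of the spread, which all 6 groups share. Adora3 was not called under any alternative in 3 comparisons, with an adjusted p from 0.0892 to 0.475 for ELS against CTR after PBS, from 0.0831 to 0.523 for the difference between age effects and from 0.0864 to 0.924 for that between LPS effects.

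On leaving out 1 mouse at a time, the sign changed for P2ry12 (-0.012 to 0.20), P2rx7 (-0.064 to 0.071) and Entpd1 (-0.069 to 0.020) in ELS against CTR at P9, for P2ry12 (-0.17 to 0.0025), P2rx4 (-0.037 to 0.036), Entpd1 (-0.060 to 0.030) and Adora2a (-0.39, without the ELS mouse of nest 20, to 1.47) in ELS against CTR after LPS, for P2rx7 (-0.011 to 0.090) with age in CTR mice and for Entpd1 (-0.046 to 0.025) after LPS in ELS mice.

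Over all genes, PBS and LPS mice of the same P200 nest did not deviate together (r from -0.04 to 0.08 over the 10 nests). The nest block among P200 mice is therefore a check only, and it left 4 genes called for LPS in CTR and 4 in ELS mice. Nests of P9 mice were not examined in this way, and the main fit takes each pup as independent. Both P9-CTR mice of nest 58 lay below all others of their group for P2ry6, P2ry12, P2ry13 and Entpd1. This was not so for P2rx4, P2rx7 or Adora3. Depth limits Adora2a, whose group sums were 0 to 457 counts. The correlations without 3 libraries and the Adora2a bounds without 1 mouse were also added after seeing the data.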

Other observations

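Adora2a, P2ry12 and Il1b were set side by side in the 12 LPS mice after their values had been seen. The 3 P200-CTR-LPS mice with no Adora2a count, those of nests 18, 5 and 15, had the highest P2ry12 of their group (12227, 10663 and 10659 CPM) and the lowest Il1b (281, 66.4 and 306 CPM). In the other 4 CTR mice P2ry12 was at 6942 to 8862 CPM and Il1b at 392 to 668 CPM. Of the ELS mice, those of nests 11 and 4 had the lowest Adora2a (0.124 and 0.819 CPM), the highest P2ry12 (9973 and 11200.1 CPM) and the lowest Il1b (206 and 253 CPM). The mouse of nest 20 had the highest Adora2a (17.8 CPM), Adora3 (541 CPM) and Il1b (1081 CPM) of all 12.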
